A study of Mus musculus with 6 samples.

Results

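Glycolysis and the pentose phosphate pathway were described through 35 genes for glucose and lactate transport, the steps of glycolysis, lactate and pyruvate handling, control of fructose bisphosphates and both branches of the pentose phosphate pathway. The genes were chosen by name from these textbook pathways, with earlier results of these data known. Of them, 34 are among the 19973 genes of the deposited table. Fbp1 is not analysed here. The cells were peritoneal macrophages of male C57BL/6 mice. The old group were mice of 18 months and the young group mice of 2 months, with 3 libraries of each age. Every mouse, old or young, had received 200 µg of zymosan A, a yeast cell wall preparation that causes a sterile peritonitis, by intraperitoneal injection 72 hours before lavage. The lavage cells were cultured overnight in medium containing L-cell media and freed of unattached cells, and the libraries used here had then been held for 6 hours in vehicle (PBS). No library used here comes from a mouse without zymosan. The question the labels pose is how the 2 ages differ. The design gives 3 mice in a group and sequencing in triplicate, and the labels do not say whether a library is a mouse or a repeat of one, so the spread that the p-values rest on may be technical.

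Glycolysis converts glucose to pyruvate. Hexokinase traps glucose as glucose 6-phosphate, phosphofructokinase commits it to splitting, and the later steps return ATP and NADH, while lactate dehydrogenase turns pyruvate into lactate and so regenerates NAD. The pentose phosphate pathway branches off at glucose 6-phosphate. Its oxidative branch makes NADPH, which macrophages use for the oxidative burst and for keeping glutathione reduced, and its non-oxidative branch, through transketolase and transaldolase, exchanges carbon between pentose phosphates and glycolytic intermediates. Many steps have several isoenzymes, encoded by separate genes, that differ in kinetics, location and regulation.

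The libraries held between 8163016 and 13007604 reads in genes. All 8 macrophage markers (Adgre1, Csf1r, Itgam, Cd68, Lyz2, Mertk, Fcgr1 and C1qa) were measured, and their normalized counts summed to 343303 to 428202 in old libraries and 277707 to 353846 in young ones. Of these, 5 were called higher and 1 lower in old libraries. The first principal component, with 71.5% of the variance, separated the ages, and the second, with 18.2%, ran from old replicate 3 to young replicate 3, with the other 4 libraries between them. Old replicate 3 held 1.34% of its reads in ribosomal RNA genes outside the mitochondrion, against 0.0177% to 0.154% in the other 5 libraries. Results that depend on these 2 libraries are given below with and without them. The summed markers of other cells moved with age, except those of mesothelial cells and fibroblasts. B cell markers summed to 2891, 3251 and 1632 normalized counts in the old libraries, against 125, 122 and 127 in the young libraries, and all 8 were higher. Mast cell markers summed to 552 to 630.0 in old and 46.3 to 71.1 in young libraries, with 5 of 6 tested higher. The 8 T and NK cell markers summed to 45.7 to 65.0 in old and 1.69 to 6.14 in young libraries, and none reached the level needed for testing. Of 8 neutrophil markers, 3 were analysed here (994 to 1102 in old, 488 to 496 in young libraries) and both tested ones were higher. Eosinophil markers, of which 3 of 6 were analysed here, summed to 30.5 to 45.3 in old and 8.05 to 17.5 in young libraries. Mesothelial and fibroblast markers, of which 6 of 7 were analysed here, summed to 469 to 568 in old and 420.3 to 512 in young libraries. These sums overlapped, and of 4 tested genes 2 were higher and 1 lower. Markers of erythroid cells and platelets, of which 4 of 8 were analysed here, summed to 654 to 864 in old and 1396 to 1653 in young libraries. Of 2 tested, 1 was lower and none higher. No listed marker was at 0 in every library. Of the cell cycle genes, the 8 listed (among them Mki67, Ccna2, Birc5 and Top2a) summed to 3569 to 3714 in old and 22490 to 25333 in young libraries, all 8 were lower in old libraries, and their median log2 fold change was -2.65. Since these are bulk samples, fewer cells of a type and less RNA per cell cannot be told apart. The part of these cells, and of cell division, in the results that follow was not tested.

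Of the 34 genes of the pathway, 12 were higher and 4 lower in old macrophages. Differences were called at an adjusted p of 0.05 from limma, fitted over all 11795 genes with a mean of at least 10 normalized counts. All 34 passed that filter, and 18 were not called. The called share of 47.1% stands beside 35.5% of all tested genes. Of all tested genes 17.9% were higher and 17.6% lower. The list as such was not tested. The median log2 fold change of the 34 genes was 0.13, against 0.00 over all tested genes. Fold changes are old minus young on the scale log2(normalized count + 1). Under quantile normalization the split was 9 higher and 5 lower. In 15 of the 34 genes the old and young libraries did not overlap, against 47.5% of all tested genes, and 13 of the 16 called genes were among them. The higher genes were spread over transport (1 of 5, with 1 lower), upper glycolysis from hexokinase to triose phosphate isomerase (4 of 10, with 2 lower), lower glycolysis (2 of 7), lactate and pyruvate handling (1 of 3), fructose bisphosphate control (1 of 2, with 1 lower), the oxidative pentose branch (1 of 3) and its non-oxidative counterpart (2 of 4).

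**Figure D1:**
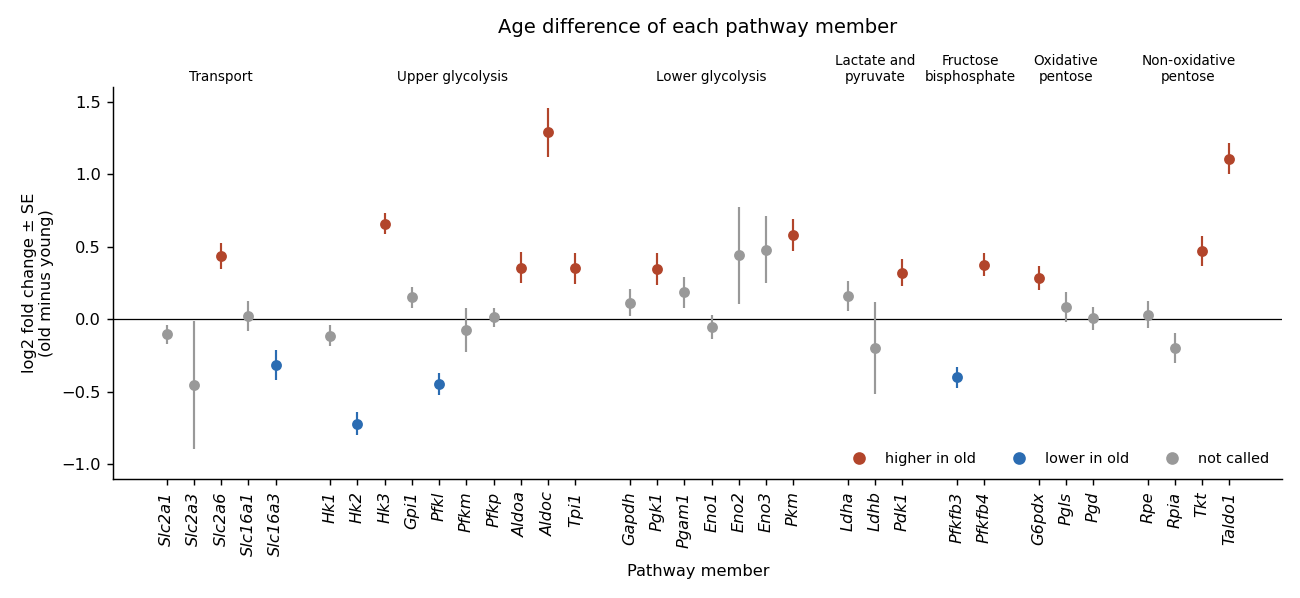
Log2 fold change of each of the 34 pathway genes, old minus young, on the y axis, with the genes along the x axis by role. Points are limma estimates, bars are ± 1 SE, and colour marks genes called higher or lower in old libraries or not called. Aldoc and Taldo1 lie highest, at 1.29 and 1.11, and Hk2 lowest, at -0.72.

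The calls were of uneven firmness. 9 of the 16 were kept under every one of the 19 alternative settings tried. These were Slc2a6, Hk3, Aldoc, Pfkfb4, Tkt and Taldo1, which were higher, and Hk2, Pfkl and Pfkfb3, which were lower. Pkm lost its call in 1 setting. The other 6 (Slc16a3, Aldoa, Tpi1, Pgk1, Pdk1 and G6pdx) lay near the threshold, and all 6 lost the call under limma without the variance trend, at adjusted p 0.0675 to 0.0965. Aldoa, Tpi1, Pgk1, Pdk1 and G6pdx each lost the call when old replicate 1, old replicate 2, young replicate 1 or young replicate 2 was left out, with limma adjusted p between 0.0722 and 0.138. In each of these 5 genes old replicate 3 was the lowest old library and young replicate 3 the highest young one. Slc16a3 lost its call without young replicate 2, young replicate 3 or old replicate 1, at 0.109 to 0.134 by limma. It also lost the call under median centring (adjusted p = 0.0543) and with the length trend removed (0.101), and Pgk1 lost it with that trend removed (0.0656). With both libraries numbered 3 left out, an alternative chosen after seeing the data, all 16 calls were kept and 16 genes were higher and 4 lower of the 34, against a share of 59.0% of all tested genes called in either direction in that fit. The 4 genes added there (Gpi1, Gapdh, Pgam1 and Ldha) are given with their steps.

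Levels of different genes were compared as normalized counts per kilobase of annotated exon, since longer transcripts collect more reads. Pkm, pyruvate kinase, led at 6167 ± 571 in old libraries and 4116 ± 323 in young ones (SD, n = 3 each). Aldoa followed at 4638 ± 479 in old libraries and 3622 ± 381 in young ones. Taldo1 had 2624 ± 374 in old libraries and 1211 ± 92.0 in young ones, which was next in the old libraries and below Ldha and Gapdh in the young libraries. Ldha had 1942 ± 188 in old libraries and 1737 ± 189 in young ones. In the old libraries Gapdh, G6pdx, Tpi1 and Hk3 followed within 1149 to 1346 per kilobase, close enough for neighbours in that order to lie within each other's spread. Hk3 reached only 728 in the young libraries. At the other end were Slc2a3, with 1.74 in old and 2.23 in young libraries, and the second isoforms of enolase and lactate dehydrogenase.

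**Figure D2:**
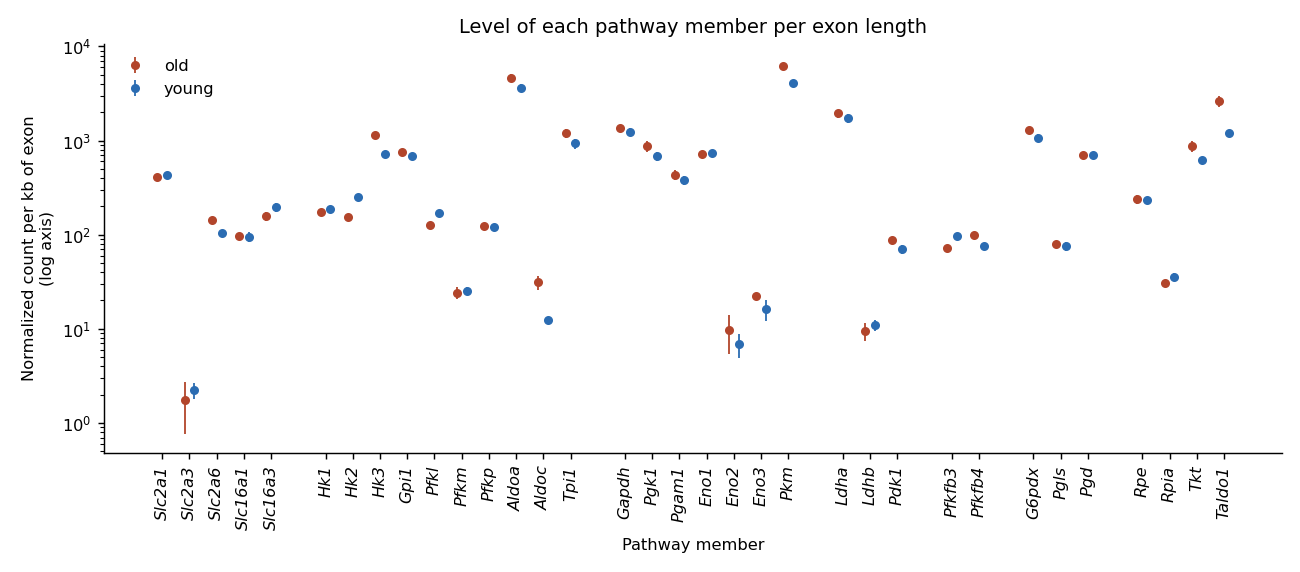
Level of each pathway gene in normalized counts per kilobase of annotated exon, on a log y axis, with the genes along the x axis by role. Points are means of old (left of each pair) and young libraries and bars are ± SD (n = 3 each). The genes span from Slc2a3, with 1.74 in old and 2.23 in young libraries on average, to Pkm, with 6167 in old and 4116 in young.

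Values of single libraries stand in the order of replicates 1, 2 and 3, and a ratio is the old mean over the young mean. Slc2a1, the GLUT1 transporter that carries most glucose into macrophages, had 1423, 1469 and 1374 normalized counts in the old libraries, against 1468, 1509 and 1605 in the young libraries, and its groups were not called different (log2 fold change -0.10 ± 0.07, limma adjusted p = 0.255). Slc2a6, GLUT6, a transporter of intracellular membranes, had 442, 492 and 433 normalized counts in the old libraries, against 359, 307 and 343 in the young libraries. All 3 old libraries exceeded all 3 young ones, and the gene was higher in old macrophages (log2 fold change 0.44 ± 0.09, limma adjusted p = 0.00464, a ratio of 1.35). Slc2a3, GLUT3, was low, at 6.35 to 20.3 normalized counts in old libraries and 12.7 to 19.1 in young ones, and was not called. Among monocarboxylate transporters, Slc16a3 (MCT4, the lactate exporter of glycolytic cells) had 796, 942 and 779 normalized counts in the old libraries, against 931, 1043 and 1159 in the young libraries, with the highest old library above the lowest young one. It was lower in old libraries (log2 fold change -0.32 ± 0.10, limma adjusted p = 0.0381). Slc16a1, MCT1, gave a log2 fold change of 0.02 (adjusted p = 0.890 by limma).

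Other transport genes lay outside the 35 and were listed separately. Of 7 tested, 2 were higher and none lower, with a median of 0.25. Emb, embigin, the partner that places MCT2 in the membrane, had 3314, 3439.6 and 2765 normalized counts in the old libraries, against 870.1, 1047 and 1055 in the young libraries, and its lowest old library lay far above its highest young one (log2 fold change 1.68 ± 0.10, limma adjusted p = 2.65e-06, a ratio of 3.20). Slc37a2, a sugar phosphate exchanger of the endoplasmic reticulum that macrophages express strongly, had 3993, 4085 and 3587 normalized counts in the old libraries, against 2224, 2372 and 2685 in the young libraries. It was also higher (log2 fold change 0.68 ± 0.09, limma adjusted p = 0.000285), without overlap.

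Hexokinase, the first step, showed the largest isoenzyme difference of the 16 pairs compared. Hexokinase 1 sits on the outer mitochondrial membrane and is found in most cells, hexokinase 2 binds there as well and is induced by hypoxia, growth factors and inflammatory stimuli, and hexokinase 3 is a myeloid enzyme without a mitochondrial anchor. Positions of genes are on GRCm38, from first to last exon. Hk2 (ENSMUSG00000000628, chromosome 6, 82725025 to 82774454, minus strand) had 857, 892 and 1003 normalized counts in the old libraries, against 1433, 1603 and 1489 in the young libraries. Every old library lay below every young one, and Hk2 was lower in old macrophages (log2 fold change -0.72 ± 0.08, limma adjusted p = 0.000116, a ratio of 0.608). Hk3 (ENSMUSG00000025877, chromosome 13, 55005985 to 55021385, minus strand) had 4081, 4317 and 4293 normalized counts in the old libraries, against 2624, 2539 and 2881 in the young libraries. Its groups were separated the other way, and it was higher (log2 fold change 0.66 ± 0.07, limma adjusted p = 9.19e-05, a ratio of 1.58). Hk1 had 1482, 1504 and 1478 normalized counts in the old libraries, against 1472, 1654 and 1716 in the young libraries, and was not called (-0.11, adjusted p = 0.251 by limma).

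**Figure D3:**
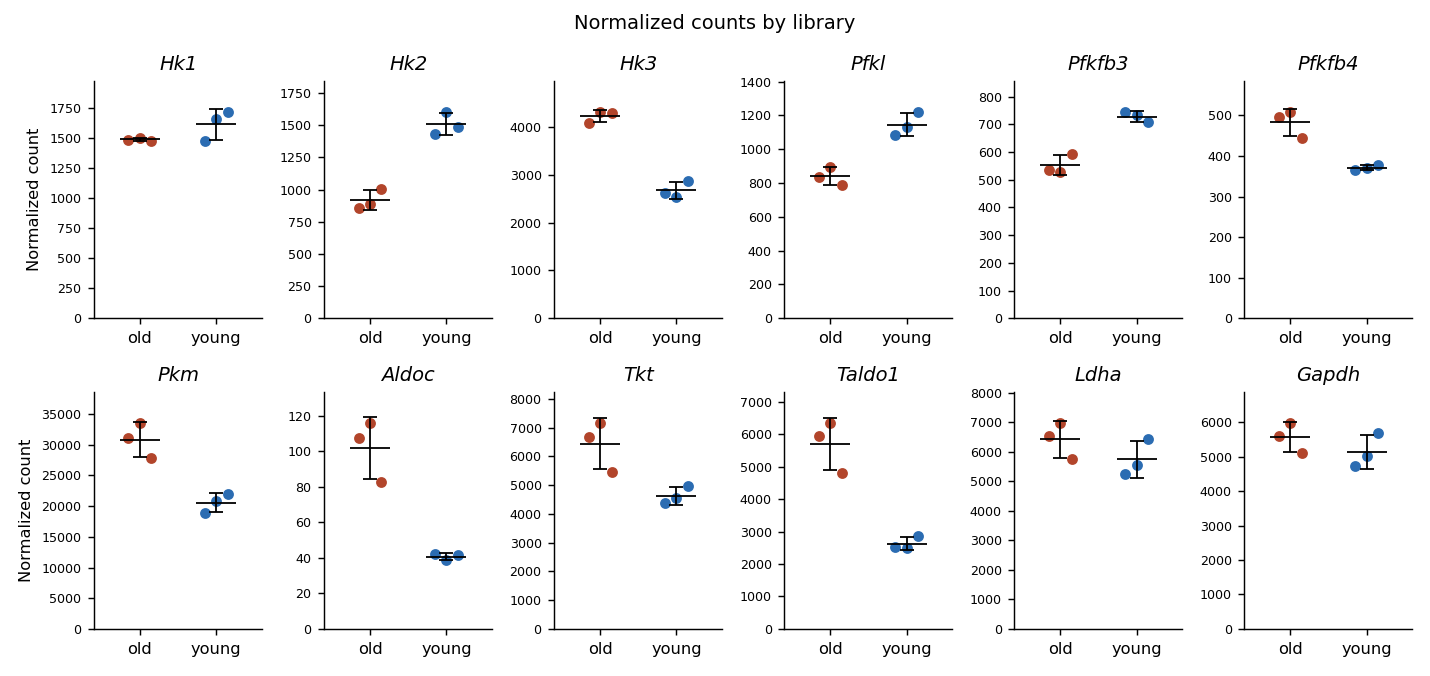
Normalized counts in every library for the genes that the results turn on, old libraries left and young libraries right in each panel, with bars for the mean ± SD (n = 3 each). For Hk2 the old libraries lie between 857 and 1003, below the young ones at 1433 to 1603, while for Hk3 the old libraries lie between 4081 and 4317, above the young ones at 2539 to 2881.

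Within each library the isoenzymes were set against each other, so that a factor common to a library cancels. The log2 ratio of Hk2 to Hk3 was -2.21 ± 0.10 in old libraries and -0.83 ± 0.15 in young ones, a difference of -1.38 ± 0.10 (SE). All 3 old libraries lay below all 3 young ones, which gives an exact 2-sided permutation p of 0.1, the smallest that 3 against 3 allows, and 0.145 after adjustment over the 16 isoenzyme pairs compared. Per kilobase of exon, the Hk3 share of hexokinase transcripts was 77.7, 78.3 and 77.4% in the old libraries, against 63.3, 59.9 and 63.5% in the young libraries. The Hk2 share was 10.1, 9.97 and 11.2% in the old libraries, against 21.3, 23.3 and 20.2% in the young libraries. On that scale it was less than Hk1 in 3 of 3 old libraries and more than Hk1 in 3 of 3 young ones. The order in the young libraries rests on the exon lengths, 8532 bases for Hk1 and 5969 for Hk2, which include exons of unused transcripts. Before division by length, Hk1 had the higher normalized count in every library. The Hk1 share was 11.8% ± 0.346 in old libraries and 16.2% ± 0.762 in young ones. In normalized counts per kilobase, all hexokinases together reached 1477 ± 44.7 in old libraries and 1170.1 ± 56.0 in young ones, without overlap between the ages.

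**Figure D4:**
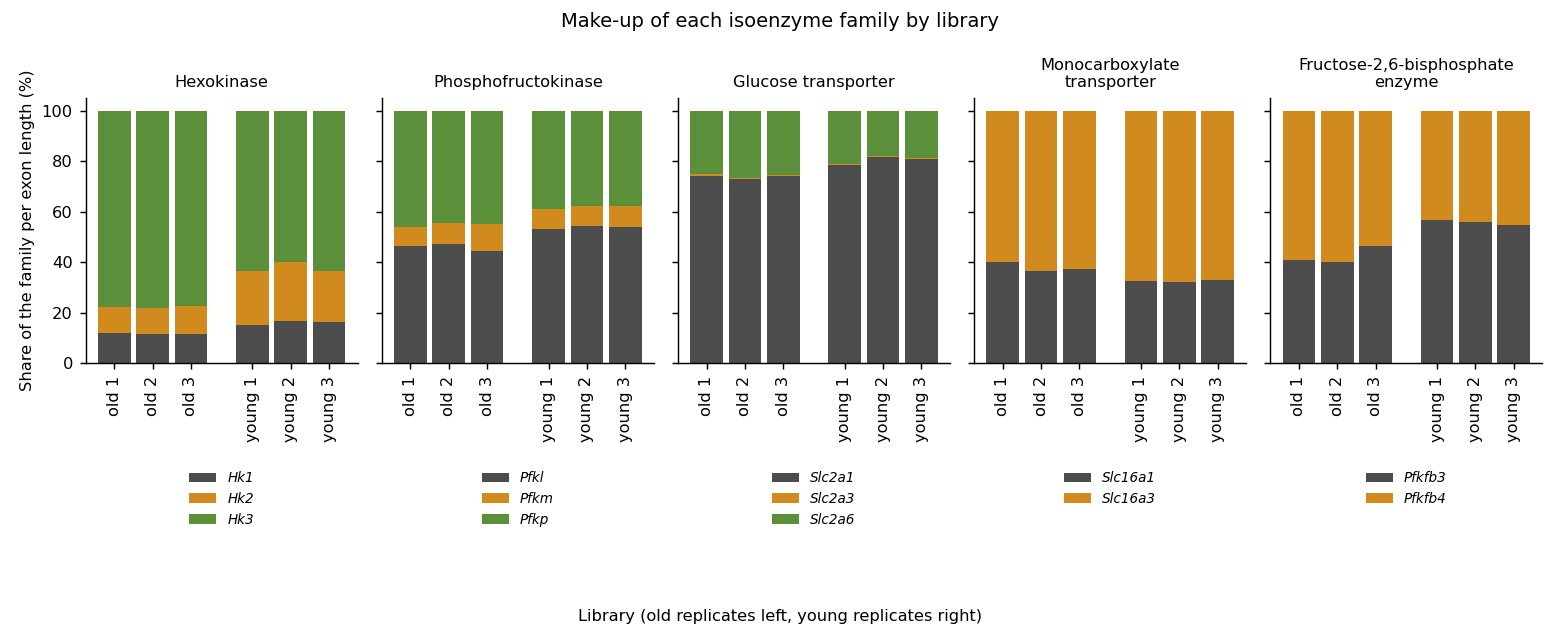
Share of each isoenzyme in its family, in percent of normalized counts per kilobase of exon, for 5 families with old libraries left and young libraries right. The Hk3 share is 77.4% to 78.3% in old and 59.9% to 63.5% in young libraries. Per kilobase, the order of Pfkfb3 and Pfkfb4 is reversed between the ages. Before division by length, Pfkfb3 has the higher normalized count in every library.

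Promoters of the hexokinase genes whose levels moved in opposite directions are printed because Hk2 is a known target of the hypoxia-inducible factors, whose binding sites contain ACGTG as one form of their core. The windows run from 250 bases before to 50 bases after the RefSeq transcript start, on GRCm38, and are written in the direction of transcription with ACGTG or its reverse complement CACGT in capitals. The Hk2 window is chr6:82774405-82774704 on the minus strand. The Hk3 window is chr13:55021336-55021635, also on the minus strand.
Hk2: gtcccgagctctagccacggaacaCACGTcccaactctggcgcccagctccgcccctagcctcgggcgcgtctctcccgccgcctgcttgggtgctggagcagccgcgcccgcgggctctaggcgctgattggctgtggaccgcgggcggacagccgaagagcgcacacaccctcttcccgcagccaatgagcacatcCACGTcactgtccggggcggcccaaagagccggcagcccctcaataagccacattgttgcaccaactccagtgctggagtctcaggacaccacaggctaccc
Hk3: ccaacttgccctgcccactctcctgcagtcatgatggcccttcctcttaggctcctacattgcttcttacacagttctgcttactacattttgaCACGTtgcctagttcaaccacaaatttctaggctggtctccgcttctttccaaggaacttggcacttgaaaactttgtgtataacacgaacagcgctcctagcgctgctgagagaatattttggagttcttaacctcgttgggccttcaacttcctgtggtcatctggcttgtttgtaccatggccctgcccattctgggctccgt
The Hk2 window held the motif at 2 places, 226 and 52 bases before the start, and the Hk3 window at 1 place, 156 bases before it. Hk1, which was not called, has 2 windows, not printed here. Of these, 1 held the motif at 2 places and the other did not hold it. A match describes the letters and does not show binding. Sequences are RefSeq's.

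Glucose 6-phosphate isomerase, Gpi1, had 5066, 5057 and 4609 normalized counts in the old libraries, against 4194, 4471 and 4578 in the young libraries. The old libraries lay above the young ones by little, and the gene was not called (log2 fold change 0.15 ± 0.07, limma adjusted p = 0.128), though limma called it without old replicate 3 (0.20, adjusted p = 0.0327), without both libraries numbered 3 (0.23, adjusted p = 0.000858) and under median centring (0.21, adjusted p = 0.0235). At the next step, phosphofructokinase, the liver isoform Pfkl (ENSMUSG00000020277, chromosome 10, 77986947 to 78010083, minus strand) had 837, 896 and 787 normalized counts in the old libraries, against 1086, 1129 and 1220.2 in the young libraries. It was lower in every old library than in any young one (log2 fold change -0.45 ± 0.08, limma adjusted p = 0.00161, a ratio of 0.733). The platelet isoform Pfkp had 1671, 1686 and 1594 normalized counts in the old libraries, against 1606, 1575 and 1726 in the young libraries, the groups overlapped, and it was not called (0.01, adjusted p = 0.894 by limma). Pfkp exons overlap those of Pitrm1 on the other strand, which averaged 745 normalized counts in old libraries and 888 in young ones and came to 49.7% of the Pfkp mean. The muscle isoform Pfkm, at 70.5 to 95.3 normalized counts in old libraries and 79.0 to 93.8 in young ones, was not called either, and its exons overlap those of Senp1 on the other strand, whose mean was higher than its own. The log2 ratio of Pfkl to Pfkp differed by -0.46 ± 0.04 between the ages without overlap (exact permutation p = 0.1, adjusted 0.145). The Pfkl share of phosphofructokinase transcripts per kilobase was 46.0% ± 1.48 in old libraries and 53.8% ± 0.778 in young ones. That of Pfkp was 45.1% ± 0.822 in old libraries and 38.3% ± 0.641 in young ones. Their order on that scale rests on the exon lengths, 6675 bases for Pfkl and 13401 for Pfkp. Before division by length, Pfkp had the higher normalized count in every library. In normalized counts per kilobase, the family's total was 273 ± 9.12 in old libraries and 319 ± 17.9 in young ones, without overlap.

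Phosphofructokinase is activated by fructose 2,6-bisphosphate, which the bifunctional Pfkfb enzymes make and remove. The Pfkfb3 product has mostly kinase activity and is known as the inducible, glycolysis-promoting form, and Pfkfb4 is the form first described in testis. Pfkfb3 (ENSMUSG00000026773, chromosome 2, 11471433 to 11554077, minus strand) had 534, 528 and 593 normalized counts in the old libraries, against 744, 732 and 706 in the young libraries, with all old libraries below all young ones (log2 fold change -0.40 ± 0.07, limma adjusted p = 0.00244, a ratio of 0.759). Pfkfb4 (ENSMUSG00000025648, chromosome 9, 108991778 to 109032228, plus strand) had 496, 509 and 445 normalized counts in the old libraries, against 365, 371 and 378 in the young libraries, with all old libraries above all young ones (log2 fold change 0.38 ± 0.08, limma adjusted p = 0.00513, a ratio of 1.30). Their log2 ratio differed by -0.78 ± 0.12, without overlap (exact permutation p = 0.1, adjusted 0.145). Per kilobase, the Pfkfb3 share of the pair was 41.0, 40.1 and 46.2% in the old libraries, against 56.8, 56.0 and 54.7% in the young libraries. On that scale Pfkfb4 was the larger part in 3 of 3 old libraries and Pfkfb3 in 3 of 3 young ones. This order rests on the exon lengths, 7561 bases for Pfkfb3 and 4875 for Pfkfb4, which include exons of unused transcripts. Before division by length, Pfkfb3 had the higher normalized count in every library. The sum of the pair per kilobase overlapped between the ages, at 172 ± 2.30 in old libraries and 172 ± 1.30 in young ones.

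The promoters of this second pair with opposite directions are shown in the same way. The Pfkfb3 window is chr2:11553880-11554179 on the minus strand, 1 of 2 RefSeq starts of the gene, and the Pfkfb4 window is chr9:108991652-108991951 on the plus strand.
Pfkfb3: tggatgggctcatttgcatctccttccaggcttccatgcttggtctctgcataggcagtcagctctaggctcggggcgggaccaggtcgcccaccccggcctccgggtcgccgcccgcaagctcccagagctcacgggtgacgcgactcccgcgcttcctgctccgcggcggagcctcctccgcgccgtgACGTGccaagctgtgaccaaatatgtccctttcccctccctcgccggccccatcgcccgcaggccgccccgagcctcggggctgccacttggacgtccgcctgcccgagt
Pfkfb4: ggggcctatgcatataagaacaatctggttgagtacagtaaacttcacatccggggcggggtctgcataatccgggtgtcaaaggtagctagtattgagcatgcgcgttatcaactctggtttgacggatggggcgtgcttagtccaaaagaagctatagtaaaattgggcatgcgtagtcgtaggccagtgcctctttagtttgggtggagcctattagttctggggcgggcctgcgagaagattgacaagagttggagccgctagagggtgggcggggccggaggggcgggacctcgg
ACGTG stood at 1 place in the Pfkfb3 window, 60 bases before the start, and these letters are not in the Pfkfb4 window. The other Pfkfb3 window, chr2:11502041-11502340, is not printed. It held ACGTG on both strands, 53 and 52 bases before its start. RefSeq windows were matched by symbol for 34 of the 35 listed genes, all but Slc2a3, and numbered 48, of which 1 belongs to Fbp1. ACGTG on either strand was found in 19 of the 48 (39.6%), against 6447 of 32851 windows of 27025 genes genome-wide (19.6%). Windows of genes lower in old libraries held it in 4 of 5 cases (80.0%), those of higher genes in 7 of 17 (41.2%) and those of genes not called in 8 of 25 (32.0%). Several windows belong to 1 gene, so these counts are not independent. Among the lower genes, both Pfkfb3 windows held it and the Pfkl window did not. The longer palindrome CACGTG, the E-box, contains ACGTG and reads the same on both strands. It was held by 8.33% of the pathway's windows and 7.15% of all. TGACNNNGC, the core of the antioxidant response element, was searched on both strands and held by 12.5% of the pathway's windows and 12.4% of all.

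Aldolase splits fructose 1,6-bisphosphate. Aldoa, the main isoform, had 14237, 14373 and 11894 normalized counts in the old libraries, against 9569, 10312 and 11749 in the young libraries. The lowest old library, old replicate 3, lay just above the highest young one, young replicate 3 (log2 fold change 0.36 ± 0.11, limma adjusted p = 0.0292, a ratio of 1.28). Under quantile normalization the Aldoa value was 0.07 with adjusted p = 0.358 by limma, which ended the call. Aldoc (ENSMUSG00000017390, chromosome 11, 78322968 to 78327781, plus strand), best known from brain, had far fewer, with 108, 116 and 82.6 normalized counts in the old libraries, against 42.2, 38.6 and 41.4 in the young libraries. No old library came near a young one (log2 fold change 1.29 ± 0.17, limma adjusted p = 0.000321), and its ratio of means, 2.51, was the highest of the 34 genes. The log2 ratio of Aldoa to Aldoc differed by -0.93 ± 0.12, without overlap (exact permutation p = 0.1, adjusted 0.145). The Aldoc share of aldolase transcripts per kilobase was 0.667% ± 0.0505 in old libraries and 0.346% ± 0.0411 in young ones. Triose phosphate isomerase, Tpi1, had 3411, 3519 and 2895 normalized counts in the old libraries, against 2298, 2483 and 2923 in the young libraries, with young replicate 3 above old replicate 3 (log2 fold change 0.35 ± 0.11, limma adjusted p = 0.0285). Its exons overlap those of Spsb2 on the other strand, whose reads came to 8.01% of its own.

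Among the 7 genes of lower glycolysis Pkm and Pgk1 were higher and none was lower. Pkm (ENSMUSG00000032294, chromosome 9, 59656368 to 59679375, plus strand), the pyruvate kinase gene that also encodes the M2 form, had 31034, 33594 and 27896 normalized counts in the old libraries, against 18851, 20842 and 22054 in the young libraries. All old libraries exceeded all young ones (log2 fold change 0.58 ± 0.11, limma adjusted p = 0.00255, a ratio of 1.498). Under quantile normalization the value was 0.13 with adjusted p = 0.138, and the table does not tell its M1 and M2 transcripts apart. Pgk1, phosphoglycerate kinase, had 2099.6, 2102 and 1669 normalized counts in the old libraries, against 1380.1, 1528 and 1704 in the young libraries, with young replicate 3 above old replicate 3 (log2 fold change 0.34 ± 0.11, limma adjusted p = 0.0355).

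Gapdh, glyceraldehyde 3-phosphate dehydrogenase, had 5597, 5985 and 5111 normalized counts in the old libraries, against 4729.7, 5014 and 5676 in the young libraries, and was not called (0.12, adjusted p = 0.352 by limma). Without both libraries numbered 3 it was called (0.25, adjusted p = 0.000448). Pgam1, phosphoglycerate mutase, gave 0.19, adjusted p = 0.206 with all 6 libraries and 0.36 with adjusted p = 0.000125 without those libraries, both by limma. It was also called without old replicate 3 alone (0.29, adjusted p = 0.0176). Eno1, the enolase of most cells, had 3899, 4182 and 3517 normalized counts in the old libraries, against 3851, 3856 and 4291 in the young libraries, and was not called (-0.05, adjusted p = 0.667 by limma). Quantile normalization called it lower in old libraries (-0.20, adjusted p = 0.0190). Eno2 and Eno3, the neuronal and muscle forms, stayed between 23.7 and 68.6 normalized counts in all libraries and were not called. Some glycolysis genes, Gapdh among them, have processed copies elsewhere in the genome. How the authors counted reads shared with such copies is not given in the sources used here.

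Ldha, the lactate dehydrogenase subunit that favours lactate, had 6533, 6990.4 and 5757 normalized counts in the old libraries, against 5246, 5554 and 6453 in the young libraries, and the groups overlapped (log2 fold change 0.16 ± 0.10, limma adjusted p = 0.245). It was called higher without old replicate 3 (0.24, adjusted p = 0.0431) and without both libraries numbered 3 (0.32, adjusted p = 2.63e-05). Ldhb, the subunit that favours pyruvate, was low at 11.4 to 18.0 in old and 14.9 to 19.4 in young libraries, and Ldha made up 99.5% of the family per kilobase in old and 99.4% in young libraries. Pdk1, the kinase that switches pyruvate dehydrogenase off, had 723, 679 and 638 normalized counts in the old libraries, against 486, 539 and 611 in the young libraries (log2 fold change 0.32 ± 0.10, limma adjusted p = 0.0271). Among 12 tested genes for the entry of pyruvate into mitochondria, 2 were higher and 1 lower, with a median of 0.08. Pdp1, the phosphatase that reverses the kinases, had 746, 741 and 607 normalized counts in the old libraries, against 351, 376 and 445 in the young libraries. It was higher without overlap (log2 fold change 0.84 ± 0.11, limma adjusted p = 0.000409, a ratio of 1.79). Pdk3, another of these kinases, was lower at -0.43, adjusted p = 0.0303, and Mpc2, a subunit of the mitochondrial pyruvate carrier, was higher at 0.39, adjusted p = 0.0407, both by limma. Pdk3 lost the call without old replicate 1, old replicate 2, young replicate 2 or young replicate 3 (limma adjusted p 0.0515 to 0.1004). It also lost the call under quantile normalization (0.0518) and without the variance trend (0.0565), both by limma. Mpc2 lost it without old replicate 1, old replicate 2, young replicate 1, young replicate 2 or young replicate 3 (limma adjusted p 0.0617 to 0.153). Limma did not call it without the variance trend (0.0818) or with the replicate number as a block (0.0994).

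In the oxidative pentose branch 1 of 3 genes was higher. G6pdx, glucose 6-phosphate dehydrogenase, which opens the pathway, had 4126, 4099.5 and 3798 normalized counts in the old libraries, against 2999, 3228 and 3669 in the young libraries, and old replicate 3 lay only slightly above young replicate 3 (log2 fold change 0.28 ± 0.09, limma adjusted p = 0.0280). Under quantile normalization it was 0.14 with adjusted p = 0.0734 by limma, which ended the call. Its exons overlap those of Ikbkg on the other strand. Ikbkg averaged 1651 normalized counts in old libraries and 1048 in young ones, and came to 36.9% of the G6pdx mean. Whether the counting used strand is not given in the sources used here. Pgls, the lactonase, and Pgd, the second dehydrogenase that yields NADPH, were not called (log2 fold changes 0.08 and 0.01, limma adjusted p = 0.552 and 0.960). Pgd had 4416, 4371 and 4894 normalized counts in the old libraries, against 4603, 4839 and 4185 in the young libraries, and the groups overlapped in part.

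Taldo1 and Tkt of the non-oxidative branch had the highest ratios of the 7 pentose phosphate genes among the 34. Taldo1 (ENSMUSG00000025503, chromosome 7, 141392199 to 141402968, plus strand), transaldolase, had 5946, 6356 and 4791 normalized counts in the old libraries, against 2519, 2509 and 2859.5 in the young libraries. The lowest old library stood well above the highest young one (log2 fold change 1.11 ± 0.11, limma adjusted p = 5.13e-05, a ratio of 2.17), and this adjusted p was the smallest of the 34 genes. Tkt (ENSMUSG00000021957, chromosome 14, 30548359 to 30574720, plus strand), transketolase, had 6686, 7169.9 and 5461 normalized counts in the old libraries, against 4361, 4542 and 4958 in the young libraries, again without overlap (log2 fold change 0.47 ± 0.11, limma adjusted p = 0.00712, a ratio of 1.39). Old replicate 3 was the lowest old library for both genes. Rpe and Rpia, the epimerase and the isomerase that sort the pentose phosphates, were not called. Rpia had 167, 170.1 and 160.0 normalized counts in the old libraries, against 178, 183 and 211 in the young libraries, with every old library below every young one (log2 fold change -0.20 ± 0.10, limma adjusted p = 0.169), and Rpe gave 0.03, adjusted p = 0.810 by limma.

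Of 8 further pentose genes tested none was higher and 2 were lower, with a median of 0.03. Prps1, which makes phosphoribosyl pyrophosphate for nucleotides, averaged 157 ± 4.59 normalized counts in old libraries and 220.1 ± 19.9 in young ones (log2 fold change -0.48 ± 0.10, limma adjusted p = 0.00519). H6pd, the hexose 6-phosphate dehydrogenase of the endoplasmic reticulum, averaged 1939.7 ± 123 normalized counts in old libraries and 2446 ± 131 in young ones (log2 fold change -0.33 ± 0.07, limma adjusted p = 0.00633). Among 9 other genes of NADPH and NADP metabolism 2 were higher and 1 lower, with a median of -0.09. Mthfd2, the mitochondrial folate enzyme that dividing cells use, had 648, 665 and 591 normalized counts in the old libraries, against 1243, 1199 and 1444 in the young libraries, and was lower without overlap (log2 fold change -1.03 ± 0.09, limma adjusted p = 2.09e-05, a ratio of 0.490). Nadk, NAD kinase, which makes NADP, was higher at 0.32, adjusted p = 0.00473, and Idh1, the cytosolic isocitrate dehydrogenase, was higher at 0.38, adjusted p = 0.0120, both by limma. Idh1 lost the call without old replicate 1, old replicate 2, young replicate 1 or young replicate 2 (limma adjusted p 0.0520 to 0.0597). With the replicate number as a block, limma called neither Idh1 (adjusted p = 0.0686) nor Nadk (0.0571).

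Over the 16 pairs of isoenzymes, the within-library ratio separated old from young libraries without overlap in 11. Of all tested single genes 47.5% did not overlap, but a ratio joins 2 genes and cancels factors common to a library. No share was computed for pairs of other genes, so whether 11 of 16 is unusual was not tested. Pairs of a family share genes, so the 11 are not independent. Each of the 11 has an exact 2-sided permutation p of 0.1 and an adjusted p of 0.145, so no single pair can pass a threshold of 0.05 in this design. Beside those given above, the pairs were Hk1 over Hk2 (0.60 ± 0.09, SE), Hk1 over Hk3 (-0.77 ± 0.07), Pfkl over Pfkm (-0.37 ± 0.17), Eno1 over Eno3 (-0.53 ± 0.22), Ldha over Ldhb (0.36 ± 0.12), Slc2a1 over Slc2a6 (-0.54 ± 0.09) and Slc16a1 over Slc16a3 (0.34 ± 0.06), all as log2 ratios, old minus young. The Slc2a6 share of the 3 glucose transporters per kilobase was 25.8% ± 0.773 in old libraries and 19.3% ± 1.49 in young ones. The Slc16a3 share of the pair of monocarboxylate transporters was 62.0% ± 1.76 in old libraries and 67.3% ± 0.399 in young ones. The 5 pairs that overlapped were those of Pfkm with Pfkp, of Eno2 with Eno1 and with Eno3, and of Slc2a3 with Slc2a1 and with Slc2a6. Family totals per kilobase overlapped between the ages for enolase, lactate dehydrogenase, and glucose and monocarboxylate transporters, and did not for aldolase, at 4669 ± 484 in old libraries and 3634 ± 381 in young ones.

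Of 17 tested regulators of the pathway, 2 were higher and 6 lower in old macrophages, with a median of -0.17. The called share was 47.1%, beside 35.5% of all tested genes. Hif1a, the oxygen-regulated subunit of the transcription factor that drives many glycolytic genes in hypoxia and inflammation, had 2389, 2290.0 and 2106 normalized counts in the old libraries, against 2916, 3273 and 3719.8 in the young libraries. All old libraries lay below all young ones (log2 fold change -0.54 ± 0.10, limma adjusted p = 0.00191, a ratio of 0.685). Epas1, which encodes HIF-2α, averaged 90.1 ± 14.1 normalized counts in old libraries and 174 ± 21.4 in young ones (log2 fold change -0.94 ± 0.15, limma adjusted p = 0.000918). Egln3, a prolyl hydroxylase and itself a target of these factors, averaged 20.01 ± 6.49 normalized counts in old libraries and 51.1 ± 2.81 in young ones (log2 fold change -1.36 ± 0.27, limma adjusted p = 0.00397). Txnip, which restrains glucose uptake and is induced by glucose through the Mlx family, had 5172, 5069.7 and 4431 normalized counts in the old libraries, against 2169, 2259 and 2404 in the young libraries. It was higher without overlap (log2 fold change 1.10 ± 0.08, limma adjusted p = 7.25e-06, a ratio of 2.15).

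Hypoxia targets outside the pathway were counted beside them. Of 15 tested, 2 were higher and 8 lower, with a median of -0.28, where the 34 pathway genes had 12 higher and 4 lower. The called share was 66.7%, beside 47.1% of the pathway genes and 35.5% of all tested genes. Vegfa, the angiogenic growth factor, had 43.0, 40.2 and 52.1 normalized counts in the old libraries, against 129.8, 159.7 and 151 in the young libraries (log2 fold change -1.69 ± 0.15, limma adjusted p = 3.04e-05, a ratio of 0.307). Ero1l, an oxidase of the endoplasmic reticulum, had 689.5, 713 and 643 normalized counts in the old libraries, against 1166, 1272 and 1316 in the young libraries (log2 fold change -0.87 ± 0.07, limma adjusted p = 2.09e-05). In both genes every old library lay below every young one. P4ha2, a collagen prolyl hydroxylase subunit, was lower at -0.87, adjusted p = 0.00101, and Bnip3l, a mitophagy receptor, was higher at 0.87, adjusted p = 0.000246, both by limma. The difference between these lists was not tested.

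Among 10 tested genes of glycolysis that lie outside the 35, 3 were higher and none lower, with a median of 0.21. Galm, which interconverts the anomers of glucose and galactose, averaged 261 ± 17.2 normalized counts in old libraries and 193 ± 8.41 in young ones (log2 fold change 0.43 ± 0.09, limma adjusted p = 0.00565). G6pc3, the widely expressed glucose 6-phosphatase, was higher at 0.37, adjusted p = 0.0268 and Adpgk, the ADP-dependent glucokinase, at 0.28, adjusted p = 0.0293, both by limma. G6pc3 lost the call without old replicate 1, old replicate 2, young replicate 1 or young replicate 2 (limma adjusted p 0.0561 to 0.0939). DESeq2 did not call it either (adjusted p = 0.0816), nor did limma with the replicate number as a block (0.0938). Adpgk lost it without old replicate 1, old replicate 2 or young replicate 2 (limma adjusted p 0.0637 to 0.136). It also lost the call by DESeq2 (adjusted p = 0.0528) and by limma without the variance trend (0.0608) or with that block (0.0965). Over all 9 lists outside the 35, with glycogen and the hexosamine and polyol routes included, 17 of 98 tested genes were higher and 20 lower, with a median of 0.02. The called share of 37.8% lies near the 35.5% of all tested genes. Apart from regulators and hypoxia targets, the called share of each of these lists was 25% to 33.3%, below that of all tested genes. The count of 17 was 9 without old replicate 1, old replicate 2 or young replicate 2, 11 without young replicate 1, and 27 without old replicate 3.

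**Figure D5:**
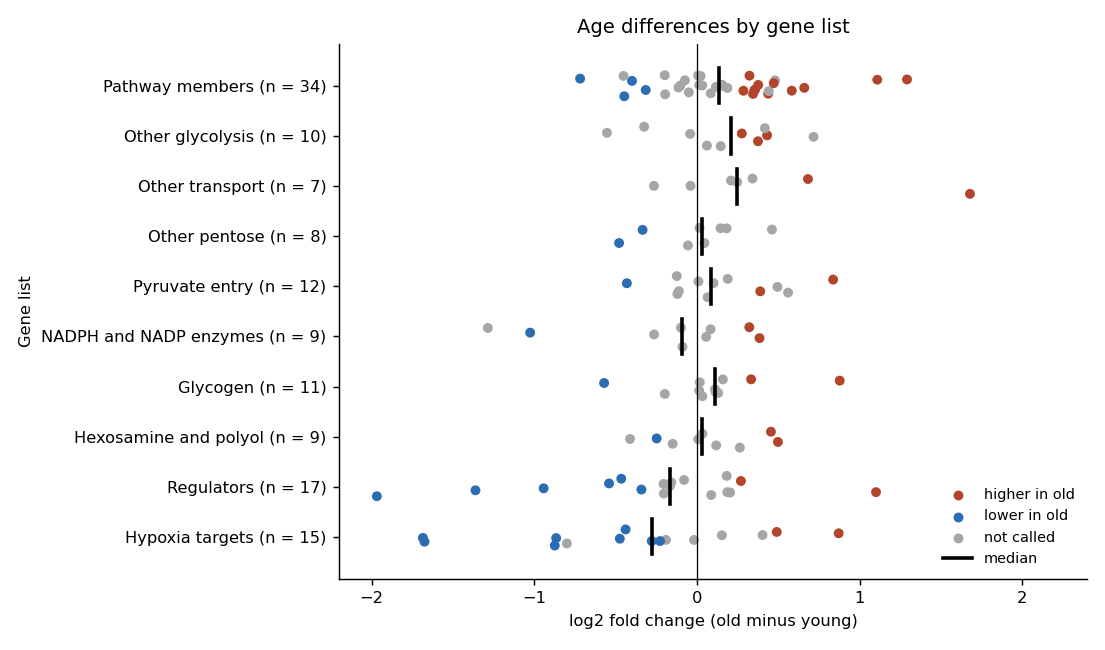
Log2 fold changes, old minus young, of the tested genes of each list, 1 point a gene, with colour for the call and a vertical line for the list's median. The pathway genes have a median of 0.13, the regulators of -0.17 and the hypoxia targets outside the pathway of -0.28.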

How the data were processed

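RNA from old and young peritoneal macrophages was prepared with TruSeq libraries, per the labels' protocols. The deposited table gives signal values per Ensembl gene, that is read counts normalized by the authors; the submitters' processing notes name DESeq2 and mm10, without versions. Not given in the sources used here are the aligner, counter, annotation release and strand setting. Every column consists of whole multiples of 1 step, so reads could be recovered, with 100% of values whole within 0.01 reads in each library. Replicates of the same age differed by more than sampling noise in each pair. The measure was the median per-gene chi-square over the median that sampling noise alone would give. It was 1.49 for old replicates 1 and 2 and 1.76 for young replicates 1 and 2. In same-age pairs with a library numbered 3 it was 3.50 to 5.69.

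Normalized counts were log2-transformed with a pseudocount of 1 and tested with limma 3.58.1 in R 4.3.3 (trend in the prior variance, 2-sided, Benjamini-Hochberg) for genes with a mean of at least 10, which set aside 8178. The script was tested on simulated data. On the recovered counts, edgeR 4.0.16 called 2060 genes higher and 2264 lower and DESeq2 1.42.0 called 1859 and 1884, against 2107 and 2076 by limma. Isoenzyme ratios used an exact permutation test (Python 3.11.15, pandas 2.3.3). Symbols matched 19917 identifiers and not 56. Positions and exon lengths (union of exons, also of unused transcripts) come from GENCODE M21 on GRCm38, and promoter sequences from RefSeq on GRCm38.p6. Exons of 11 of the pathway genes overlap exons of a gene on the other strand, 4 of them among the 16 called. The members and lists were chosen with earlier results of these data known. All members could be named, and from each other list up to 4 called genes with the smallest adjusted p.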

Additional observations from a re-analysis of the deposited data

How the results depend on the processing

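Over 19 alternatives (pseudocount, filter, scaling, test, replicate block, leaving out libraries, and 3 chosen after seeing the data), the 9 calls named as kept held throughout. The 12 pathway genes called higher became 7 under limma without the variance trend and ranged from 7 to 15 with 1 library left out, and the 4 lower ones ranged from 3 to 4. Genes of the other lists called higher ranged from 9 to 27 with 1 library left out and came to 38 without both libraries numbered 3. Over all genes that setting gave 3568 higher and 3396 lower. The cause was not tested, but this fit rests on 2 libraries a group. Same-numbered deviations correlate at -0.382, -0.361 and -0.676. These values cannot settle whether replicate numbers pair the libraries, since old replicate 3 and young replicate 3 deviate in opposite directions and weigh on all of them. With the number as a replicate block, calls were 1281 higher and 1362 lower over all genes, 7 higher among pathway genes and 8 among the other lists. Median centring gave 2724 higher and 1790 lower over all genes.

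Directions turned only for values that were not called in the main comparison. Pgd was -0.119 under quantile normalization, -0.0156 by edgeR, -3.36e-05 by DESeq2 and -0.103 without both libraries numbered 3, and Eno1 was 0.00358 under median centring, 0.0108 with the length trend removed and 0.0676 without those libraries, where Eno2 was -0.0868, Ldhb 0.0606 and Eno1 over Eno2 0.154. Quantile normalization gave Gapdh -0.0506 and Ldha -0.0529, and edgeR gave Slc16a1 -0.00227 and Pfkp -0.00925. With 1 library left out, signs turned within the ranges of -0.0556 to 0.111 for Slc16a1, -0.194 to 0.0205 for Pfkm, -0.0137 to 0.0525 for Pfkp, -0.109 to 0.0159 for Eno1, -0.0116 to 0.136 for Pgls, -0.0514 to 0.0534 for Pgd, -0.0305 to 0.116 for Rpe, -0.232 to 0.0165 for Pfkm over Pfkp, -0.428 to 0.298 for Eno2 over Eno3 and -0.00142 to 0.741 for Slc2a1 over Slc2a3.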

Other observations

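Glycogen genes were examined beside the pathway. Of 11 tested, 2 were higher and 1 lower in old macrophages, with a median log2 fold change of 0.11. Gbe1, the branching enzyme, had 1349, 1380.5 and 1226 normalized counts in the old libraries, against 668, 694 and 793 in the young libraries, and every old library exceeded every young one (log2 fold change 0.88 ± 0.08, limma adjusted p = 4.70e-05, a ratio of 1.84). Gys1, the glycogen synthase of most tissues, averaged 129 ± 20.6 normalized counts in old libraries and 192 ± 15.7 in young ones and was lower (log2 fold change -0.57 ± 0.14, limma adjusted p = 0.0101). Both calls were kept in all 19 alternatives. Pgm1, the phosphoglucomutase that links glucose 1-phosphate to glucose 6-phosphate, was higher at 0.33, adjusted p = 0.0295 by limma. Pgm1 lost the call without old replicate 1, old replicate 2, young replicate 1 or young replicate 2 (limma adjusted p 0.0866 to 0.127). Limma did not call it without the variance trend (0.0655) or with the replicate block (0.110).

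Of 9 tested genes of the hexosamine and polyol routes, 2 were higher and 1 lower, with a median of 0.03. Pgm3, the phosphoacetylglucosamine mutase of the hexosamine route, averaged 255 ± 9.90 normalized counts in old libraries and 181 ± 22.5 in young ones and was higher (log2 fold change 0.50 ± 0.11, limma adjusted p = 0.00610), a call kept in all 19 alternatives. Uap1, which makes UDP-N-acetylglucosamine in the last step of that route, was lower at -0.25, adjusted p = 0.0307, and Khk, ketohexokinase, was higher at 0.45, adjusted p = 0.0478, both by limma. Uap1 lost the call without old replicate 1, old replicate 2, young replicate 1, young replicate 2 or young replicate 3 (limma adjusted p 0.0504 to 0.144). It also lost the call by DESeq2 (adjusted p = 0.0805). Limma did not call it under quantile normalization (0.0790), median centring (0.0646), the replicate block (0.130) or with the length trend removed (0.0603). Khk lost it without old replicate 1, old replicate 2, young replicate 1, young replicate 2 or young replicate 3 (limma adjusted p 0.0950 to 0.172). It also lost the call by DESeq2 (adjusted p = 0.134). Limma did not call it without the filter on low values (0.0809), with the replicate block (0.0969) or with the length trend removed (0.0734).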
